A study of Mus musculus with 24 samples.

Results

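The collagen genes of the mouse kidney were followed through 6 genotypes. Members were the rows whose symbol has the form Col, a type number, the letter a and a chain number, and 44 of the 54532 rows of the count table matched. They comprised 9 genes of the fibrillar types (I, II, III, V and XI), 6 genes of type IV, the type of basement membranes, and 29 genes of other types. All 44 passed the limit on low expression and were tested.

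Bulk RNA was sequenced from whole kidneys of 24 C57BL/6 mice killed at 18 days of age, 1 library per mouse, and the study's methods give the background as C57BL/6 J. The gene under study was Pkd1, which is mutated in most patients with autosomal dominant polycystic kidney disease, and all 24 mice had 1 copy with the missense change RC. The noncystic controls were RC/+ (n = 3), RC/+ D18 (n = 3) and RC/+ D53 (n = 3), and the cystic groups were RC/- (n = 5), RC/- D18 (n = 5) and RC/- D53 (n = 5). In D18 and D53, lines from founder 3 and founder 2, the RC allele lacked the miR-17 binding motif in the 3′ untranslated region of Pkd1. The study's methods describe the second Pkd1 allele as floxed and removed in cystic mice by Ksp-Cre, which acts in tubule and collecting duct epithelium, so the presence of Cre and the loss of the allele cannot be told apart. Each edited line descended from 1 founder.

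Collagens are built from chains that wind in threes into a triple helix, which requires a glycine in each repeat of 3 residues. Fibrillar collagens assemble into the tensile fibres of the interstitium, type IV forms the sheet-like network of basement membranes beneath tubules and glomerular capillaries, and the other types decorate fibrils, form short networks, anchor membranes or span the cell membrane. Accumulation of interstitial collagen is the hallmark of kidney fibrosis, and the mature glomerular filter depends on a type IV network of the α3, α4 and α5 chains.

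Totals per library ran from 20379982 to 30837488 counts, and levels are given as CPM, the counts of a gene scaled to a common library total, or as CPM per kb of annotated exon where genes are compared with each other. In bulk tissue, more cells of a type and more RNA per cell cannot be told apart. All kidneys expressed the tubule markers (summed 10805 to 12011 CPM for 7 genes in RC/+ and 5104 to 8972 in RC/-). All 4 smooth muscle and myofibroblast markers were higher in RC/- than in RC/+, with summed levels of 118 to 151 and 346 to 773 CPM, against 84.8 to 183 in RC/- D18 and 137 to 329.7 in RC/- D53. Of 7 fibroblast and pericyte markers, 3 were higher in RC/- (Cspg4, Dcn and Lum). All 6 macrophage markers were higher in RC/- than in RC/+, with summed levels of 190.1 to 206 and 364 to 621 CPM, and all 6 were lower than in RC/- in RC/- D18 (238 to 262) and RC/- D53 (259 to 346). Of 6 endothelial markers, 3 were lower in RC/- than in RC/+ and none higher. The 7 skeletal muscle markers summed to 6.94 to 11 CPM in the noncystic and RC/- libraries, but to 8.54 to 188 in RC/- D18, where replicates 20, 21 and 22 were raised, and to 154 to 203 in all 5 RC/- D53 libraries. The part of these cell types in the collagen values was not tested, apart from fits without the raised libraries or with them as a covariate.

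The difference between fibrillar and type IV collagens is visible in their coding sequence. In the longest protein-coding transcript of each gene (GENCODE, GRCm38), a repeat unit was counted as a GGN codon, which encodes glycine, followed by 2 other codons. The 9 fibrillar genes carried a longest unbroken run of 337 to 344 units. The 6 type IV genes had longest runs of 39 to 66 units and 22 to 27 separate runs of at least 5 units. Exons of exactly 54 bases, 6 repeat units, numbered 21 to 31 per fibrillar gene and 1 to 3 per type IV gene. One such exon from each of 4 fibrillar genes is shown, with the GGN codons that keep the repeat in capitals.
Col1a1 (chr11:94939904-94939957, plus strand): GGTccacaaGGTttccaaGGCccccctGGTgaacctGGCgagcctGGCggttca
Col1a2 (chr6:4515481-4515534, plus strand): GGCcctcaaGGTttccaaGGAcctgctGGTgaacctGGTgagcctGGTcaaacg
Col3a1 (chr1:45325360-45325413, plus strand): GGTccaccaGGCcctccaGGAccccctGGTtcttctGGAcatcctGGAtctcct
Col5a2 (chr1:45422386-45422439, minus strand): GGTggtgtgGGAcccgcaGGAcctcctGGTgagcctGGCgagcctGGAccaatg
Windows of 54 coding bases across a break in the repeat are shown for 2 type IV genes that moved in opposite directions in cystic kidneys, with the capitals again marking the GGN codons of the repeat on each side.
Col4a1 (chr8:11235147-11235200, minus strand): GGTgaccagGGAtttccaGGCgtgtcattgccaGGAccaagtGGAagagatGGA
Col4a3 (chr1:82668979-82669032, plus strand): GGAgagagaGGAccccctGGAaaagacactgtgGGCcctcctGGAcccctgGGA

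In RC/- kidneys, 23 of the 44 collagen genes rose and 2 fell relative to RC/+, and 19 did not pass the test (limma-trend, adjusted p below 0.05 over 22570 genes). Across all genes tested, 25.5% were called higher and 12.2% lower. By class, 7 of 9 fibrillar genes rose and none fell, 2 of 6 type IV genes rose and 1 fell, and 14 of 29 other genes rose and 1 fell. The median log2 fold change was 1.20 for fibrillar, -0.12 for type IV and 0.83 for other types, beside 0.14 over all genes tested. When libraries were scaled by TMM factors, the median over all genes moved to 0.01 and the split became 21 higher and 5 lower. Over all 22570 genes tested, that scaling gave 3844 higher and 3896 lower. Under that scaling Col4a2 and Col6a2 were no longer called, and Col4a5, Col13a1 and Col27a1 were called lower.

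**Figure D1:**
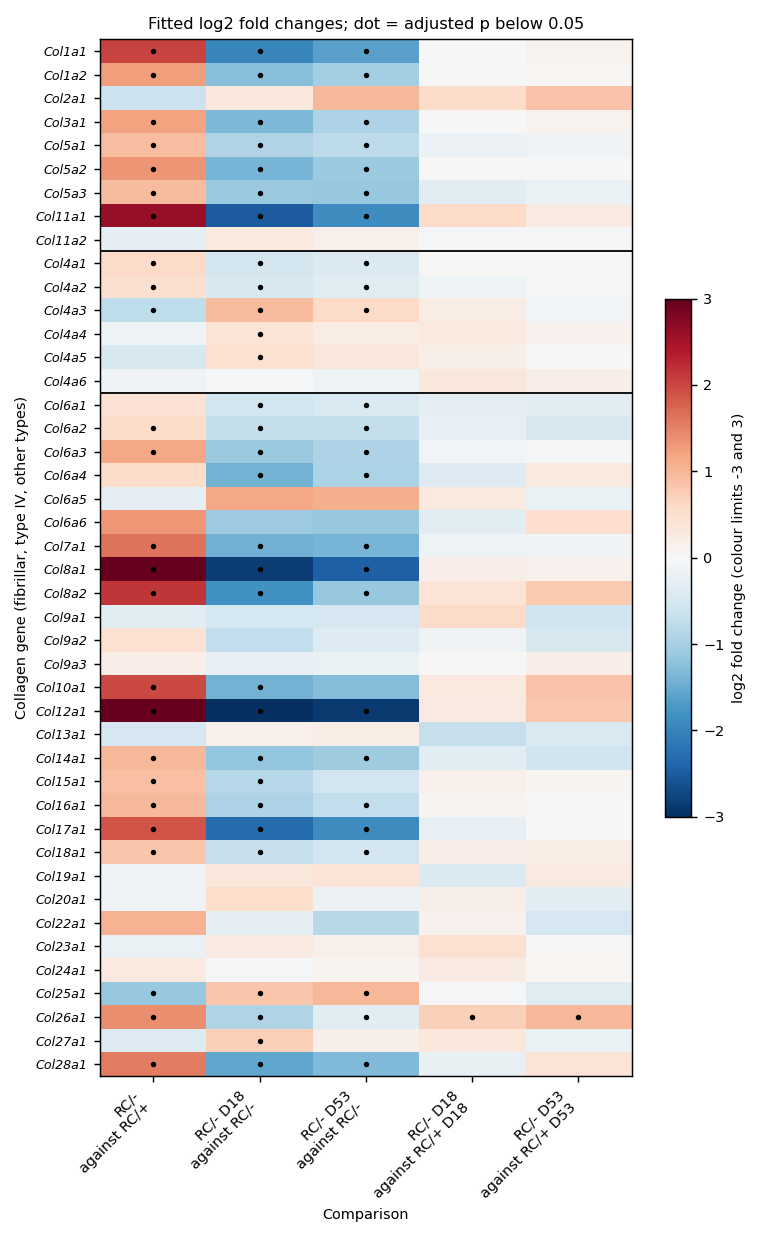
Fitted log2 fold change of each of the 44 collagen genes (rows, with lines between fibrillar, type IV and other types) in 5 comparisons (columns), red for higher and blue for lower in the first-named group, with a dot where the adjusted p is below 0.05. The first column holds 25 dots and the last 2 columns hold 1 dot each, both for Col26a1.

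Type I collagen, the main protein of interstitial fibres, is a trimer of chains encoded by Col1a1 and Col1a2. Col1a1 (ENSMUSG00000001506, chr11:94936224-94953042, plus strand) was counted at 211, 132 and 199.6 CPM in RC/+, 132, 171 and 285 in RC/+ D18 and 200.03, 212 and 251 in RC/+ D53. In RC/- it was counted at 804, 708, 581, 841 and 738 CPM, and in the edited cystic kidneys at 256, 300.1, 173, 169.5 and 104 CPM in RC/- D18 and 237, 189, 233, 228 and 313 in RC/- D53. Every RC/- library lay above all 19 others. The log2 fold change was 2.04 ± 0.25 (SE) in RC/- against RC/+ (adjusted p = 8.37e-07), -1.96 ± 0.22 in RC/- D18 against RC/- (1.61e-07) and -1.62 ± 0.22 in RC/- D53 against RC/- (5.07e-06). Col1a2 (ENSMUSG00000029661, chr6:4504814-4541544, plus strand) was counted at 543, 408 and 543 CPM in RC/+, 350.1, 475 and 692 in RC/+ D18 and 477, 542 and 664 in RC/+ D53. Its RC/- libraries held 1403, 1103, 862, 1420.3 and 1213 CPM, and the edited cystic libraries held 660.4, 719, 490.2, 409 and 294 CPM in RC/- D18 and 562, 486, 580.0, 565 and 738 in RC/- D53. Col1a2 rose less than Col1a1, by 1.26 ± 0.23 on the log2 scale with an adjusted p of 0.000139, and again no RC/- library overlapped another group.

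Type III collagen, a homotrimer that co-assembles with type I, comes from Col3a1 (ENSMUSG00000026043, chr1:45311538-45349706, plus strand), the most abundant fibrillar gene per kb in RC/+. Its level was 815, 559 and 771 CPM in RC/+, 424, 655 and 895 in RC/+ D18 and 654, 786 and 951 in RC/+ D53. Levels in RC/- reached 2014, 1461, 1186, 1980.1 and 1599.8 CPM, and the edited cystic kidneys had 898, 1038, 631, 561 and 308 CPM in RC/- D18 and 803, 675, 834, 831 and 1152 in RC/- D53. The RC/- libraries lay above all others, with a log2 fold change of 1.20 ± 0.28 against RC/+ (adjusted p = 0.00161). Among the RC/- D18 mice, replicates 18 and 19 had the highest levels of Col1a1, Col1a2 and Col3a1, and replicate 22 had the lowest. With only replicates 18 and 19 in RC/- D18, the log2 fold change against RC/- was -1.39 for Col1a1, -0.78 for Col1a2 and -0.74 for Col3a1, and all 3 remained called.

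**Figure D2:**
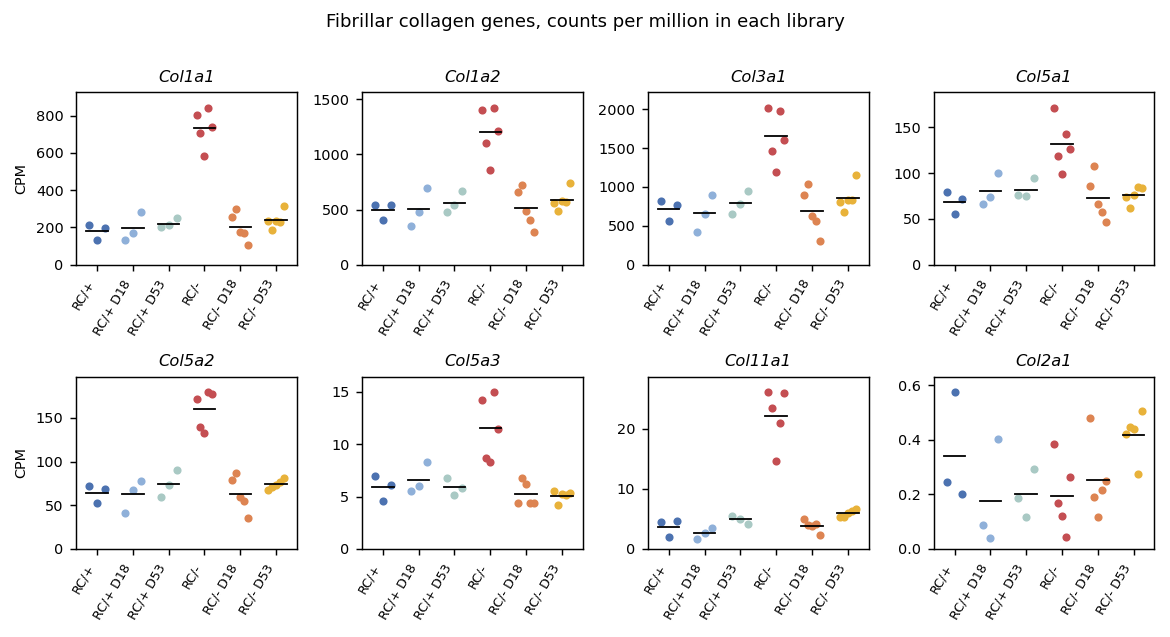
CPM (linear axis from 0) of 8 fibrillar collagen genes in each of the 24 libraries, grouped by genotype, with a point for each mouse and a black line at the group mean. For 7 genes the 5 RC/- points lie above the RC/+ points, while Col2a1 stays below 1 CPM in all groups. Of all 22570 genes tested, 5870 also had every RC/- library above every RC/+ library.

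Type V collagen is a minor component that nucleates fibrils and limits their diameter. Col5a2 (ENSMUSG00000026042, chr1:45374321-45503282, minus strand), which lies 24614 bases from Col3a1, was counted at 71.9, 52.7 and 68.6 CPM in RC/+, 41.4, 67.9 and 77.7 in RC/+ D18 and 59.3, 72.7 and 90.039 in RC/+ D53. It reached 171, 139, 133, 179 and 177 CPM in RC/-, and 78.8, 86.4, 59.6, 55.1 and 35.3 CPM in RC/- D18 and 67.6, 70.4, 73.5, 77 and 81.1 in RC/- D53. These RC/- values did not overlap those of any other group, and the log2 fold change against RC/+ was 1.31 ± 0.22 (adjusted p = 3.13e-05). Col5a1 (ENSMUSG00000026837, chr2:27886425-28039514, plus strand) was counted at 79.7, 54.9 and 72.3 CPM in RC/+, 66.3, 73.8 and 100.4 in RC/+ D18 and 76.4, 75.3 and 94.7 in RC/+ D53, at 171, 119, 99.2, 143 and 126 CPM in RC/-, and at 86, 108, 65.9, 57.3 and 46.5 CPM in RC/- D18 and 73.9, 61.6, 76.5, 85.4 and 83.4 in RC/- D53. Its RC/- libraries lay above RC/+ but overlapped RC/+ D18 and RC/- D18, with a log2 fold change of 0.93 ± 0.21 (0.000876). Col5a3 (ENSMUSG00000004098, chr9:20770050-20815067, minus strand) was counted at 6.98, 4.56 and 6.10 CPM in RC/+, 5.53, 5.99 and 8.26 in RC/+ D18 and 6.79, 5.13 and 5.79 in RC/+ D53, at 14.2, 8.66, 8.30, 14.9 and 11.4 CPM in RC/-, and at 4.34, 6.76, 6.24, 4.38 and 4.37 CPM in RC/- D18 and 5.51, 4.23, 5.21, 5.14 and 5.34 in RC/- D53. The log2 fold change of Col5a3 was 0.94 ± 0.20 (0.000718) in RC/- against RC/+.

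Type XI collagen, best known from cartilage, is a relative of type V that also nucleates fibrils. Col11a1 (ENSMUSG00000027966, chr3:114030540-114220718, plus strand) had the largest fitted increase of the fibrillar genes. It was counted at 4.53, 1.99 and 4.58 CPM in RC/+, 1.65, 2.69 and 3.48 in RC/+ D18 and 5.55, 4.97 and 4.22 in RC/+ D53. RC/- libraries held 26, 23.4, 14.6, 21 and 25.8 CPM, and the edited cystic libraries 4.99, 3.98, 3.85, 4.19 and 2.35 CPM in RC/- D18 and 5.25, 5.37, 6.05, 6.39 and 6.60 in RC/- D53. The RC/- values lay above every other library, and the log2 fold change against RC/+ was 2.62 ± 0.26 (adjusted p = 3.02e-08). The partner chain Col11a2 (ENSMUSG00000024330, chr17:34039437-34066685, plus strand) was counted at 2.65, 3.01 and 2.93 CPM in RC/+, 2.35, 2.36 and 4.42 in RC/+ D18 and 2.59, 3.00 and 2.60 in RC/+ D53, at 3.25, 1.94, 2.3037, 1.93 and 2.34 CPM in RC/-, and at 2.32, 3.07, 3.22, 2.96 and 2.77 CPM in RC/- D18 and 2.98, 2.32, 2.09, 2.83 and 2.85 in RC/- D53. All groups overlapped for Col11a2, and its log2 fold change in RC/- was -0.30 (95% interval -0.70 to 0.10). Col2a1 (ENSMUSG00000022483, chr15:97975602-98004695, minus strand), the cartilage fibril gene, was barely counted, at 0.245, 0.575 and 0.201 CPM in RC/+, 0.0871, 0.0408 and 0.402 in RC/+ D18 and 0.188, 0.118 and 0.294 in RC/+ D53. It was at 0.385, 0.169, 0.119, 0.0420 and 0.265 CPM in RC/-, and at 0.482, 0.192, 0.118, 0.217 and 0.249 CPM in RC/- D18 and 0.422, 0.448, 0.440, 0.276 and 0.505 in RC/- D53. Its groups overlapped, and the log2 fold change in RC/- was -0.65 (95% interval -1.52 to 0.23). Summed levels of the cartilage and bone markers Acan, Sox9, Runx2 and Bglap were 3.63 to 5.66 CPM in RC/+ and 7.05 to 10.5 in RC/-. Of the 3 tested, Sox9 and Runx2 were called higher in RC/- and Bglap was not called, while Acan was below the limit on expression.

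The type IV genes lie in pairs that start head to head. Col4a1 and Col4a2, on chromosome 8, overlap by 22 bases at their starts. Col4a6 and Col4a5, on chromosome X, are 1308 bases apart, and Col4a4 and Col4a3, on chromosome 1, are 71 bases apart. The whole interval between Col4a4 and Col4a3, which no annotated transcript covers, is shown because the ratio of its flanking genes was compared between groups. It comes from the RefSeq promoter table (GRCm38.p6), plus strand, with 49 of its 71 bases G or C.
Col4a4 to Col4a3 (chr1:82586850-82586920, plus strand): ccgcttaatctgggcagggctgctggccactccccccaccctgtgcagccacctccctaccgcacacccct

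Col4a1 and Col4a2 encode the α1 and α2 chains, found in nearly all basement membranes. Col4a1 (ENSMUSG00000031502, chr8:11198423-11312826, minus strand) was counted at 1215, 981 and 1242 CPM in RC/+, 930.2, 1130.2 and 1368 in RC/+ D18 and 1232, 1277 and 1382 in RC/+ D53. It reached 1900.0, 1597, 1639, 1569.6 and 1763 CPM in RC/-, and 1365, 1554, 1129, 1043 and 813 CPM in RC/- D18 and 1202, 1209, 1279, 1453 and 1164 in RC/- D53. Col4a2 (ENSMUSG00000031503, chr8:11312805-11449287, plus strand) was counted at 762, 644 and 801 CPM in RC/+, 649, 783 and 986 in RC/+ D18 and 789, 811 and 853 in RC/+ D53, at 1219, 1036, 949.6, 878 and 1047 CPM in RC/-, and at 901, 958, 712, 654 and 523 CPM in RC/- D18 and 759, 789.7, 812, 888 and 726 in RC/- D53. All RC/- libraries lay above all RC/+ libraries for both genes, and for Col4a1 above every other library. The increases were smaller than those of the fibrillar genes called, with log2 fold changes of 0.57 ± 0.15 for Col4a1 (adjusted p = 0.00367) and 0.48 ± 0.15 for Col4a2 (0.0142). Col4a2 was not called under TMM scaling (0.34, adjusted p = 0.0505) or without RC/+ replicate 5 (adjusted p = 0.0948).

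Col4a3, Col4a4 and Col4a5 encode the α3, α4 and α5 chains of the glomerular network, the chains affected in Alport syndrome. Col4a3 (ENSMUSG00000079465, chr1:82586921-82722059, plus strand) was counted at 264, 333 and 333 CPM in RC/+, 276, 275 and 354 in RC/+ D18 and 292, 286 and 287 in RC/+ D53. Its RC/- libraries were not alike, at 322, 311, 125, 120.2 and 134 CPM for replicates 13 to 17. Edited cystic libraries held 389.8, 353, 360.2, 317 and 340.3 CPM in RC/- D18 and 282, 280.1, 279, 279 and 245 in RC/- D53. Replicates 13 and 14 lay within the RC/+ range, and replicates 15, 16 and 17 lay below every other library of the series. The log2 fold change was -0.76 ± 0.23 in RC/- against RC/+ (adjusted p = 0.0123), and it was lost when only those 2 groups entered the model (adjusted p = 0.105), without RC/+ replicate 5 (0.0532) and without RC/+ replicate 6 (0.0527).

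The same 3 libraries were low for the neighbouring chains. Col4a4 (ENSMUSG00000067158, chr1:82448423-82586849, minus strand) was counted at 266, 327 and 337 CPM in RC/+, 275, 294 and 354 in RC/+ D18 and 289.7, 297 and 314 in RC/+ D53, at 399, 415, 239, 205 and 214 CPM in RC/-, and at 429, 406, 366, 329 and 353 CPM in RC/- D18 and 319, 337, 320.4, 333 and 321 in RC/- D53. Replicates 13 and 14 of RC/- were above all RC/+ libraries, replicates 15 to 17 were below them, and the log2 fold change was -0.14 (95% interval -0.47 to 0.20). Col4a5 (ENSMUSG00000031274, chrX:141475385-141689234, plus strand) was counted at 205, 241 and 254 CPM in RC/+, 185, 199 and 237 in RC/+ D18 and 213, 204 and 214 in RC/+ D53, at 265, 247, 125, 118 and 139 CPM in RC/-, and at 273, 202, 279, 202 and 215 CPM in RC/- D18 and 226, 216, 221, 198 and 197 in RC/- D53. Its log2 fold change of -0.47 in RC/- was not called (adjusted p = 0.0621), but was without RC/- replicate 13 (0.00543) or replicate 14 (0.0112). Col4a6 (ENSMUSG00000031273, chrX:141165403-141474076, minus strand), whose chain joins α5 in the basement membrane of Bowman's capsule and of some tubules, was counted at 15.3, 33.5 and 25.4 CPM in RC/+, 18.8, 12 and 21.4 in RC/+ D18 and 18, 17.6 and 15.7 in RC/+ D53, at 41, 39.7, 12.7, 14.8 and 16.4 CPM in RC/-, and at 27.1, 13.6, 32.6, 15.7 and 24 CPM in RC/- D18 and 22.4, 15.6, 22.4, 16.2 and 22.8 in RC/- D53. Replicates 13 and 14 were again the highest within RC/-, and the gene was not called (log2 fold change -0.11, 95% interval -0.78 to 0.57). Of 6 podocyte markers, 4 were lower in RC/- (Nphs1, Podxl, Ptpro and Wt1) and 2 were higher (Plce1 and Synpo), and the summed level of all 6 was 485 to 503 CPM in RC/+ and 282 to 399.9 in RC/-. Their part in the type IV values was not tested.

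**Figure D3:**
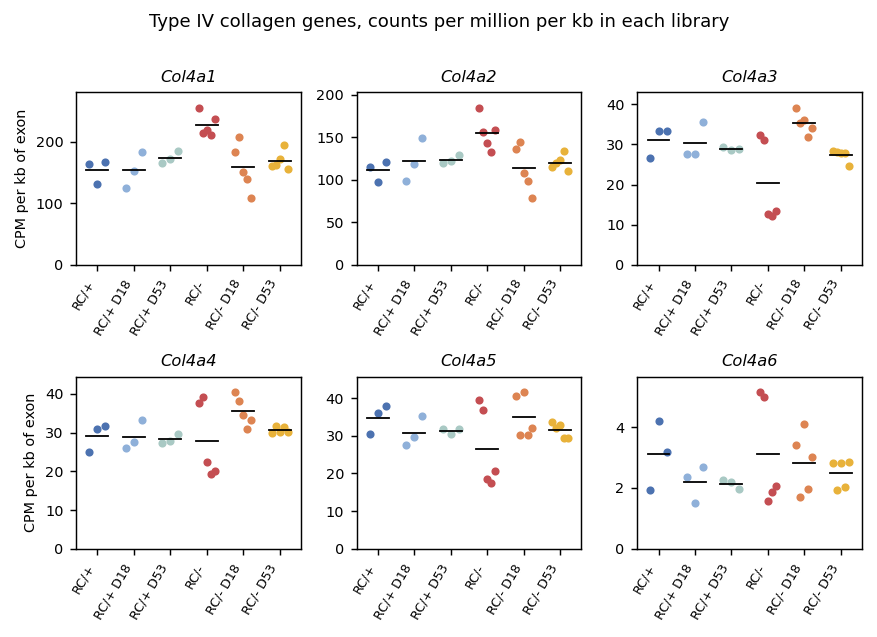
CPM per kb of exon (linear axis from 0) for the 6 type IV genes in each library, with a point for each mouse in order of replicate number and a black line at the group mean. In RC/-, the last 3 points (replicates 15 to 17) lie below the first 2 for Col4a3, Col4a4, Col4a5 and Col4a6 but not all for Col4a1.

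Per kb of exon, Col4a1 and Col4a2 had the highest levels of the family in RC/+, at 154 ± 19.3 and 111 ± 12.4 CPM per kb (SD, n = 3). Col3a1 followed at 72.8 ± 14, Col18a1 at 63.6 ± 2.97 and Col1a2 at 40.1 ± 6.27, where the intervals of 1 SD of Col3a1 and Col18a1 overlapped. Col4a5, Col4a3, Col4a4, Col6a1, Col1a1 and Col15a1 lay between 27.4 and 34.8 CPM per kb. In RC/-, Col3a1 stood at 168 ± 35.9 and Col1a1 at 112 ± 15.3 CPM per kb (SD, n = 5). The length used is the union of annotated exons, 12426 bases for Col1a2 and 6563 for Col1a1. Their coding bases number 4116 and 4359. The order of genes and the size of a ratio between genes depend on these lengths. Comparing a ratio of 2 genes between groups does not.

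The genes of other types included those with the largest increases of the family. Types VIII and X form short-chain networks, of which type VIII is found in vessel walls and type X in growth plate cartilage. Col8a1 (ENSMUSG00000068196, chr16:57624258-57754737, minus strand) was counted at 5.63, 5.35 and 6.06 CPM in RC/+, 7.88, 4.03 and 5.49 in RC/+ D18 and 8.37, 7.18 and 7.41 in RC/+ D53. RC/- libraries held 40.02, 35.3, 51.4, 81.7 and 35.4 CPM, and edited cystic libraries 4.91, 5.46, 6.00, 8.75 and 8.03 CPM in RC/- D18 and 8.33, 4.88, 9.16, 8.90 and 12.1 in RC/- D53. The lowest RC/- library exceeded the highest of any other group, and the log2 fold change against RC/+ was 3.01 ± 0.27 (adjusted p = 5.18e-09). Col8a2 (ENSMUSG00000056174, chr4:126286793-126314330, plus strand) was counted at 5.63, 2.74 and 4.30 CPM in RC/+, 2.61, 3.42 and 6.29 in RC/+ D18 and 4.28, 4.30 and 5.74 in RC/+ D53, at 15.8, 13, 18.7, 25.9 and 20.2 CPM in RC/-, and at 4.38, 5.65, 7.34, 5.42 and 3.66 CPM in RC/- D18 and 8.11, 7.61, 9.02, 7.39 and 9.06 in RC/- D53. Its RC/- libraries also stood above all others, with a log2 fold change of 2.15 ± 0.26 (4.36e-07). Col10a1 (ENSMUSG00000039462, chr10:34389981-34397085, plus strand) had 0, 1 and 2 counts in the RC/+ libraries and 9, 6, 7, 14 and 11 in RC/-, so its fitted log2 fold change of 1.98 ± 0.58 depends on the prior count. Levels of Col10a1 were 0, 0.0442 and 0.0803 CPM in RC/+, 0, 0 and 0.357 in RC/+ D18 and 0, 0 and 0.0981 in RC/+ D53, 0.385, 0.253, 0.278, 0.588 and 0.487 CPM in RC/-, and 0.263, 0.0958, 0.196, 0.0362 and 0 CPM in RC/- D18 and 0.0324, 0.204, 0.147, 0 and 0.325 in RC/- D53.

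Fibril-associated collagens bind the surface of fibrils without forming them. Col12a1 (ENSMUSG00000032332, chr9:79598991-79718831, minus strand), typical of tendon and of tissue under load, had the largest fitted change of the 44 genes. It was counted at 25, 21.8 and 24.4 CPM in RC/+, 17.1, 23.8 and 32.9 in RC/+ D18 and 25.9, 26.3 and 35.9 in RC/+ D53. In RC/- it was counted at 423, 329, 263, 450.3 and 431 CPM, and the edited cystic kidneys had 36.6, 38.8, 32.5, 26.3 and 16.1 CPM in RC/- D18 and 42.5, 44.8, 57.3, 48.6 and 65.3 in RC/- D53. The lowest RC/- library was above the highest of all other groups, and the log2 fold change was 3.97 ± 0.23 (adjusted p = 1.12e-11). Col14a1 (ENSMUSG00000022371, chr15:55307750-55520803, plus strand) was counted at 92.2, 43.1 and 86.6 CPM in RC/+, 85.4, 61.9 and 85.7 in RC/+ D18 and 88.5, 97.9 and 117 in RC/+ D53, at 175, 144, 106, 169 and 116 CPM in RC/-, and at 71.5, 85.2, 70.4, 52.9 and 37.2 CPM in RC/- D18 and 63.2, 37.9, 74.8, 89.8 and 77.9 in RC/- D53. Col14a1 rose by a log2 fold change of 0.99 ± 0.27 (0.00535), but was not called without RC/+ replicate 5, its lowest RC/+ library (0.0872). Col16a1 (ENSMUSG00000040690, chr4:130047840-130099283, plus strand) was counted at 37, 29.8 and 39.7 CPM in RC/+, 21.5, 33.5 and 57.7 in RC/+ D18 and 36.7, 37.5 and 51.7 in RC/+ D53, at 87.2, 58.4, 60.1, 74.1 and 71.4 CPM in RC/-, and at 54.8, 62.4, 31.8, 27.9 and 21.9 CPM in RC/- D18 and 39.5, 39.2, 43.2, 44.2 and 42.9 in RC/- D53. Its RC/- libraries lay above RC/+, with a log2 fold change of 0.98 ± 0.27 (0.00579).

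**Figure D4:**
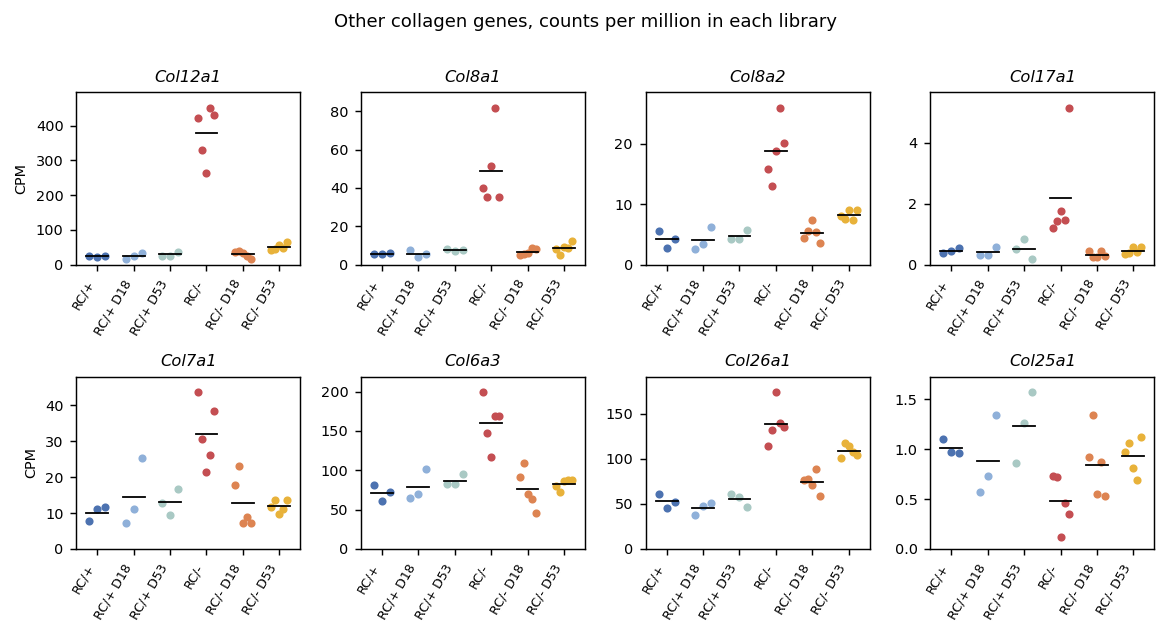
CPM (linear axis from 0) of 8 collagen genes of other types in each library, with a point for each mouse and a black line at the group mean. Col12a1 and Col8a1 are high only in the 5 RC/- libraries, Col26a1 is also raised in both edited cystic groups, and Col25a1 is lowest in RC/-.

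Col6a3 (ENSMUSG00000048126, chr1:90765923-90843971, minus strand) encodes the large chain of type VI, the beaded microfibrils around cells. It was counted at 80.8, 61.1 and 72.8 CPM in RC/+, 64.4, 70.3 and 102 in RC/+ D18 and 82.4, 82.3 and 95.8 in RC/+ D53, at 199, 147, 117, 169 and 169.6 CPM in RC/-, and at 91.7, 109, 70.4, 63.3 and 45.1 CPM in RC/- D18 and 80.3, 72.3, 86.4, 88 and 87.8 in RC/- D53. Every RC/- library was above every other, and the log2 fold change was 1.15 ± 0.20 (adjusted p = 6.33e-05). Col7a1 (ENSMUSG00000025650, chr9:108953586-108984875, plus strand) encodes the anchoring fibrils that tie epithelial basement membranes to the stroma. It was counted at 7.76, 11 and 11.6 CPM in RC/+, 7.14, 11.2 and 25.4 in RC/+ D18 and 12.7, 9.47 and 16.8 in RC/+ D53, at 43.7, 30.6, 21.4, 26.2 and 38.4 CPM in RC/-, and at 17.8, 23.1, 7.34, 8.79 and 7.18 CPM in RC/- D18 and 11.6, 13.6, 9.64, 11.1 and 13.5 in RC/- D53. The RC/- libraries were above RC/+ but overlapped RC/+ D18 and RC/- D18, with a log2 fold change of 1.63 ± 0.36 (0.000768). Col28a1 (ENSMUSG00000068794, chr6:7997808-8192617, minus strand), a type with von Willebrand factor A domains, was counted at 0.572, 0.752 and 1.24 CPM in RC/+, 0.871, 0.774 and 1.38 in RC/+ D18 and 0.713, 0.868 and 0.589 in RC/+ D53, at 1.67, 1.44, 2.90, 3.82 and 4.11 CPM in RC/-, and at 1.23, 0.623, 1.22, 0.579 and 0.675 CPM in RC/- D18 and 0.616, 0.936, 0.733, 1.42 and 1.44 in RC/- D53. It rose by 1.56 ± 0.36 on the log2 scale (0.00136).

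Transmembrane collagens were few and of low level. Col17a1 (ENSMUSG00000025064, chr19:47646344-47692094, minus strand), a hemidesmosome component of epithelia, was counted at 0.367, 0.442 and 0.562 CPM in RC/+, 0.305, 0.326 and 0.580 in RC/+ D18 and 0.525, 0.829 and 0.196 in RC/+ D53, at 1.20, 1.44, 1.75, 1.47 and 5.13 CPM in RC/-, and at 0.438, 0.240, 0.235, 0.434 and 0.284 CPM in RC/- D18 and 0.357, 0.366, 0.586, 0.414 and 0.577 in RC/- D53. All 5 RC/- libraries were above all others, replicate 17 most of all, and the log2 fold change was 1.88 ± 0.40 (adjusted p = 0.000517). Col25a1 (ENSMUSG00000058897, chr3:130131501-130599877, plus strand), a neuronal transmembrane collagen, was counted at 1.1025, 0.973 and 0.963 CPM in RC/+, 0.566, 0.734 and 1.34 in RC/+ D18 and 0.863, 1.26 and 1.57 in RC/+ D53, at 0.727, 0.718, 0.119, 0.462 and 0.354 CPM in RC/-, and at 0.920, 1.34, 0.549, 0.868 and 0.533 CPM in RC/- D18 and 0.973, 1.06, 0.806, 0.690 and 1.12 in RC/- D53. It was the only gene of other types that fell in RC/-, by a log2 fold change of -1.14 ± 0.38 (0.0198), with every RC/- library below every RC/+ library. The call was lost without RC/+ replicate 4 (0.0661) or RC/- replicate 15 (0.0582), and when only those 2 groups entered the model (0.0707).

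Col26a1 (ENSMUSG00000004415, chr5:136741759-136883209, minus strand), a short secreted collagen first described in testis and ovary, was the only member that was called between the cystic and noncystic genotypes in all 3 lines. It was counted at 61.4, 45.6 and 52.2 CPM in RC/+, 38, 47.2 and 51.1 in RC/+ D18 and 61.2, 57.7 and 47.2 in RC/+ D53. Cystic libraries held 114, 132, 174, 139.7 and 135 CPM in RC/-, and 77, 78.2, 71.4, 88.7 and 58.7 CPM in RC/- D18 and 101, 118, 114, 108 and 105 in RC/- D53. Each cystic group stood above its noncystic counterpart with no overlap, the RC/- D53 libraries stood above all RC/- D18 libraries, and RC/- overlapped RC/- D53. The log2 fold change was 1.39 ± 0.13 in RC/- against RC/+ (adjusted p = 1.32e-08), 0.72 ± 0.13 within the D18 line (0.0128) and 0.99 ± 0.13 within the D53 line (5.97e-05). It was the only 1 of 44 called within the D18 line, where 0.266% of all genes were called, and the only 1 within the D53 line, where 2.60% were. Between the edited cystic groups it was higher in RC/- D53 than in RC/- D18 by 0.56 ± 0.11 (0.0293), again the only call of 44, beside 0.266% of all genes. This call was kept in 12 of 22 alternatives and was lost without any 1 library of these groups other than RC/- D18 replicate 21 and RC/- D53 replicate 23, with adjusted p of 0.0501 to 0.11 in those 8 fits. The call within the D18 line was lost without RC/+ D18 replicate 7 (0.147), RC/+ D18 replicate 8 (0.0653) or RC/- D18 replicate 21 (0.0505), and with replicates 18 and 19 alone in RC/- D18 (0.064).

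The other 17 members are given by range. In type VI, Col6a1 ranged over 83.2 to 194 CPM in the 24 libraries and Col6a2 over 52.7 to 143 CPM. Col6a2 rose in RC/- (0.54 ± 0.19, adjusted p = 0.0253), while Col6a1, at 0.42 ± 0.17, was not called (0.056). The Col6a2 call was kept in 10 of 18 alternatives. Losses were not limited to single libraries, as it was also not called under TMM scaling. It was lost without RC/+ replicate 5 (0.33, adjusted p = 0.23), RC/+ replicate 4 (0.0571) or RC/- replicate 13 (0.0578). The difference between Col6a1 and Col6a2 was not tested. Col6a4, Col6a5 and Col6a6 stayed below 3 CPM. Col6a5 and Col6a6 share a stretch of 572 bases at 96.9% identity, so reads may have been split between them. The multiplexins of vascular and epithelial basement membranes both rose, Col15a1 (92.6 to 379.9 CPM) by 0.90 ± 0.26 (0.00748) and Col18a1, the source of endostatin (372 to 863 CPM), by 0.83 ± 0.11 (1.54e-06). Col27a1 (51.3 to 129 CPM), a distant relative of the fibrillar types, had a log2 fold change of -0.39 and was not called. The other 12 members (Col6a4, Col6a5, Col6a6, Col9a1, Col9a2, Col9a3, Col13a1, Col19a1, Col20a1, Col22a1, Col23a1 and Col24a1) were each below 10 CPM in every library and not called in RC/- against RC/+.

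The libraries of RC/- D18 and RC/- D53 show what collagen expression was when the miR-17 motif was missing from the cystic genotype. In RC/- D18 against RC/-, 25 of the 44 genes fell and 5 rose, where 26.9% and 14.3% of all genes were called lower and higher. In RC/- D53 against RC/-, 23 fell and 2 rose, where 18.9% and 11.3% of all genes were called. All 7 fibrillar genes that had risen in RC/- were lower in both edited groups, with medians over the 9 fibrillar genes of -1.27 in D18 and -1.02 in D53, beside -0.10 and -0.08 over all genes. These comparisons share the RC/- libraries with RC/- against RC/+, so opposite signs were not independent. Log2 fold changes in D18 and D53 were -3.69 and -2.86 for Col12a1, -2.82 and -2.46 for Col8a1, -2.50 and -1.86 for Col11a1, and -2.30 and -1.88 for Col17a1. The genes that rose in RC/- D18 were Col4a3 (0.95), Col4a4 (0.42), Col4a5 (0.46), Col25a1 (0.82) and Col27a1 (0.71), and those that rose in RC/- D53 were Col4a3 (0.58) and Col25a1 (1.004). Some of these calls were often lost in the alternatives, which include leaving out each library. In RC/- D53, Col4a3 was called in 9 of 21 alternatives, and of the genes that fell, Col4a2 in 8 of 21 and Col26a1 in 14 of 21. In RC/- D18, Col25a1 was called in 12 of 21, Col4a5 in 12 of 22 and, among those that fell, Col10a1 in 12 of 21.

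Libraries with raised skeletal muscle genes touch both of these comparisons. With only replicates 18 and 19 in RC/- D18, which had no such rise, 16 genes were lower and 5 higher than in RC/-, and 20 of these 21 calls were among the 30. Among the genes no longer called were Col5a1, Col4a1, Col4a2, Col6a1, Col7a1, Col15a1 and Col16a1. All 5 RC/- D53 libraries had raised muscle genes, so that rise and the genotype cannot be told apart within the group. With libraries 20 to 27 as a covariate, which borrows its estimate from RC/- D18, 3 genes remained called in RC/- D53 against RC/-. They were Col12a1 (-2.21), Col8a1 (-2.99) and Col11a1 (-1.46), all lower. Counts over all genes in these fits are not given here, so a loss of calls particular to collagen genes cannot be read from them.

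No effect of the edit on collagen genes was detected in noncystic kidneys. None of the 44 was called in RC/+ D18 against RC/+, where 0.00443% of all genes were called, or in RC/+ D53 against RC/+, where 0% were, by limma-trend. At an unadjusted p below 0.05, 1 and 0 members passed, beside 4.49% and 2.33% of all genes, and DESeq2 called none in either comparison. The median log2 fold change of the 44 was -0.01 in D18 and 0.16 in D53. For Col1a1 the 95% intervals of the log2 fold change were -0.49 to 0.63 and -0.25 to 0.87.

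The difference between cystic and noncystic kidneys was itself compared between lines. It was lower in the D18 line than in the unedited line for 18 genes and higher for 2, Col4a3 and Col27a1, where 10.8% and 6.31% of all genes were called lower and higher. In the D53 line it was lower for 16 genes and higher for none, where 6.55% and 4.73% of all genes were called. All 7 fibrillar genes with an increase in RC/- were among the 18 in D18, and 6 of them were among the 16 in D53, from which Col3a1 was missing (adjusted p = 0.0798). Col3a1 was also called for D18 in only 13 of 28 alternatives (adjusted p = 0.0428 in the model reported), Col6a2 in 13 of 28, Col4a3 in 12 of 28 and Col27a1 in 18 of 28, and Col6a1 was called for D53 in 8 of 27. The interaction was -3.69 ± 0.33 in D18 and -3.15 ± 0.33 in D53 for Col12a1, -2.80 ± 0.38 and -2.88 ± 0.38 for Col8a1, and -2.03 ± 0.36 and -1.93 ± 0.36 for Col1a1. Within the edited lines, which share no library with RC/- against RC/+, Col1a1 differed between cystic and noncystic kidneys by 0.01 (95% interval -0.49 to 0.51) in D18 and 0.11 (-0.39 to 0.61) in D53. Col12a1 differed by 0.27 (-0.18 to 0.73) and 0.81 (0.35 to 1.27), with an adjusted p of 0.0654 in D53.

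As a share of all counts, the 44 genes took 0.551% ± 0.0606 (SD, n = 3.0) of a library in RC/+ and 0.981% ± 0.114 (SD, n = 5.0) in RC/-. The fibrillar genes took 0.154% ± 0.0282 (SD, n = 3.0) and 0.391% ± 0.0730 (SD, n = 5.0), and the other types 0.121% ± 0.0142 (SD, n = 3.0) and 0.248% ± 0.0199 (SD, n = 5.0). Type IV genes took 0.276% ± 0.0219 (SD, n = 3.0) and 0.342% ± 0.0491 (SD, n = 5.0), with overlapping libraries. In RC/- D18 the fibrillar share was 0.155% ± 0.0585 (SD, n = 5.0) and in RC/- D53 it was 0.185% ± 0.0325 (SD, n = 5.0). By mean, type IV was ahead of fibrillar in RC/+ and fibrillar was ahead in RC/-. The order did not change in every RC/- library. Type IV was still ahead in replicate 14 (0.365% against 0.356%) and replicate 15 (0.309% against 0.289%).

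Ratios between chains were tested for 5 pairs of genes. No test of ratios had been planned, and the adjustment below does not cover the choice of pairs. Other ratios were computed but not tested, and these also did not overlap between RC/- and RC/+. They were Col5a1 to Col5a2 (0.805 to 1.13 in RC/- and 1.18 to 1.25 in RC/+) and Col4a5 to Col4a4 (0.826 to 1.05 and 1.16 to 1.21). The last was Col4a1 plus Col4a2 to the sum of Col4a3, Col4a4 and Col4a5 (3.46 to 7.26 and 2.28 to 3.38). The ratio of Col1a1 to Col1a2 per kb was 0.735, 0.613 and 0.695 in RC/+ and 1.08, 1.21, 1.28, 1.12 and 1.15 in RC/-. It was 0.733, 0.790, 0.669, 0.785 and 0.668 in RC/- D18 and 0.799, 0.736, 0.762, 0.765 and 0.803 in RC/- D53, so RC/- overlapped none of them. An exact two-sided permutation test gave p = 0.0357 for RC/- against RC/+, the smallest that 5 against 3 libraries allow, and 0.00794 for each edited cystic group against RC/-, the smallest for 5 against 5. Adjusted over the 25 tests of 5 ratios, these exact p-values were 0.0595 and 0.0283. Col3a1 to Col1a1 went the other way, at 2.66 ± 0.140 (SD) in RC/+, 1.49 ± 0.133 in RC/-, and stood at 2.26 ± 0.172 for RC/- D18 mice and 2.39 ± 0.0753 for RC/- D53 mice, with the same exact p-values, although these chains belong to different trimers. Col6a3 to Col6a1 was 0.212 ± 0.0311 in RC/+ and 0.351 ± 0.0365 in RC/-, also with the same exact p-values. Within the D53 line it was higher in cystic than in noncystic kidneys as well, at 0.253 ± 0.00994 against 0.212 ± 0.0113 with no overlap (exact p = 0.0357, adjusted 0.0595). After adjustment, no ratio passed 0.05 between cystic and noncystic kidneys of the same line. As 5 against 3 libraries allow no exact p below 0.0357, no conclusion is drawn from that.

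In type IV, the ratio of Col4a3 to Col4a4 per kb was 1.06, 1.08 and 1.05 in RC/+ and 0.859, 0.798, 0.559, 0.625 and 0.665 in RC/-, with no overlap (exact permutation p = 0.0357, adjusted 0.0595). So the ratio was lower in RC/- replicates 13 and 14 too, where both genes were at or above RC/+ levels. It was 0.999 ± 0.0505 (SD) in RC/- D18 and 0.891 ± 0.0499 in RC/- D53. The latter lay below RC/+ D53, at 1.02 ± 0.0502, with no overlap (exact p = 0.0357, adjusted 0.0595). Exons of other annotated genes cover 5.65% of the exon bases of Col4a3, and reads there may have been left out or counted elsewhere. Col4a1 to Col4a2 was 1.38 ± 0.0323 in RC/+ and 1.47 ± 0.0944 in RC/-, a difference within the spread (exact p = 0.214). In the D18 line the same ratio was 1.40 ± 0.0362 in cystic and 1.26 ± 0.0262 in noncystic kidneys, with no overlap (exact p = 0.0357, adjusted 0.0595). Col4a1 plus Col4a2 against the sum of Col4a3, Col4a4 and Col4a5 stood at 2.82 ± 0.552 in RC/+ and 5.70 ± 1.81 in RC/-. The 5 RC/- libraries ran from 3.46 to 7.26 and the RC/+ libraries from 2.28 to 3.38, without overlap. This ratio was not tested.

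**Figure D5:**
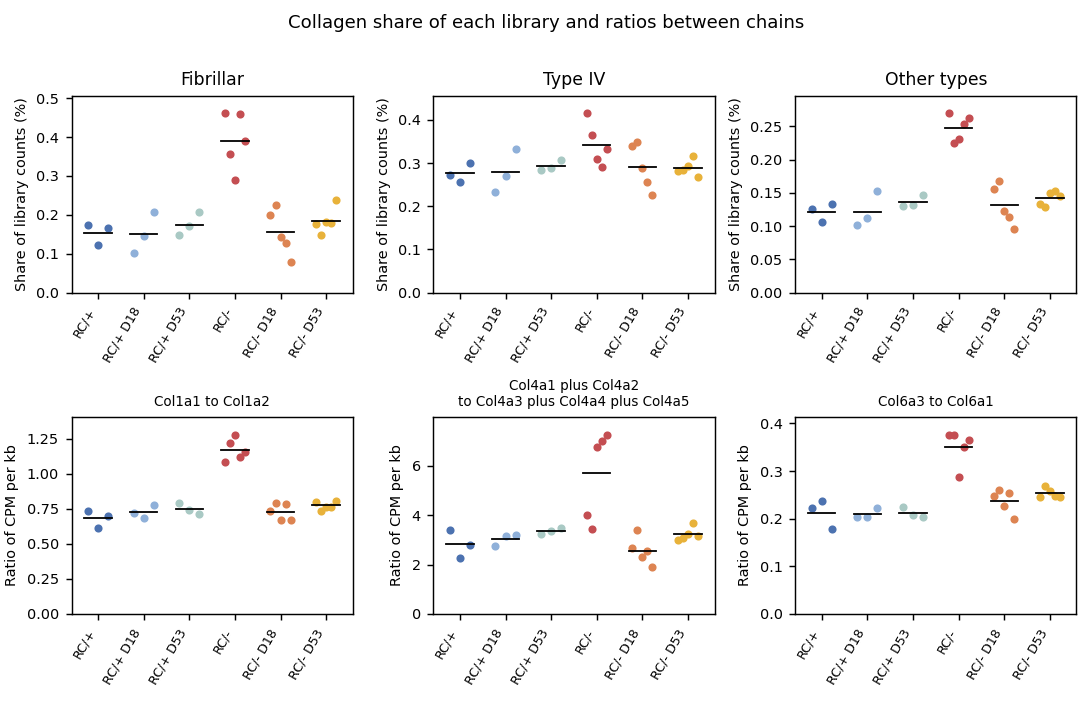
The upper row plots the share of library counts in percent for the 3 classes, and the lower row plots 3 ratios of CPM per kb, with a point for each library and a black line at the group mean. RC/- stands above the other groups for the fibrillar and other shares and for Col1a1 to Col1a2 and Col6a3 to Col6a1. It overlaps them for the type IV share. For the ratio of type IV genes it overlaps other groups but not RC/+.

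Genes that make, link, bind and break down collagen were listed from general knowledge, but with earlier results of these data known. The list held 61 genes, of which 60 were tested. In RC/- against RC/+, 37 rose and 6 fell, where 25.5% and 12.2% of all genes were called higher and lower. Of 18 genes of chain modification and folding 11 rose and 2 fell, and of 7 propeptide processing genes 4 rose and 2 fell. Of 6 crosslinking genes 5 rose (Lox, Loxl1, Loxl2, Loxl3 and Pxdn), of 11 fibril-binding and basement membrane partners 6 rose, of 9 receptors 7 rose, and of 9 breakdown genes 4 rose and 2 fell. The largest increases were in Timp1, an inhibitor of matrix metalloproteinases (3.96 ± 0.36, from 0.929 to 1.45 CPM to 10.9 to 30.1 CPM), and Itga11, the α11 subunit of a collagen receptor (2.02 ± 0.34). Next in fitted value were Mmp8, a collagenase of neutrophils (1.97 ± 0.42), and P4ha3, a prolyl hydroxylase subunit (1.93 ± 0.37). Mmp8 had 0, 1 and 0 counts in RC/+ and 6, 6, 7, 13 and 4 in RC/-, so its fitted value and its rank depend on the prior count. The largest decreases were in the gelatinase Mmp9 (-1.54 ± 0.38, from 1.19 to 6.25 CPM to 0.633 to 2.26 CPM), the tolloid-like protease Tll1 (-1.50 ± 0.23), the collagenase Mmp13 (-1.11 ± 0.31) and the procollagen N-proteinase Adamts14 (-0.92 ± 0.20). Set against RC/-, 35 of the 60 were lower and 8 higher in RC/- D18, and 29 were lower and 5 higher in RC/- D53. The shares of all genes called lower and higher were 26.9% and 14.3% in the first of these comparisons and 18.9% and 11.3% in the second.

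Promoters of 35 members were found in the RefSeq table (GRCm38.p6), and 150 bases before each start were searched on both strands for 4 short runs of letters. The run TATAAA was present for 4 of the 35, beside 7.57% of all 32851 promoters in the table. The run CCAAT was present for 8, beside 24.5%. GGGCGG was present for 19, beside 28.6%, and TGANTCA for 1, beside 4.24%. A member was counted if any of its promoters held the run, whereas each share is over single promoters. In 102 of the 32851 promoters, copies of 2 different runs shared at least 1 base. A match is a run of letters and not a site of binding. The windows of Col3a1 and Col8a1 are shown as genes that rose in RC/- and differ in these letters, with matches in capitals on the strand of the gene (TATAAA in the first, GGGCGG on the opposite strand in the second).
Col3a1 (chr1:45311388-45311537, plus strand): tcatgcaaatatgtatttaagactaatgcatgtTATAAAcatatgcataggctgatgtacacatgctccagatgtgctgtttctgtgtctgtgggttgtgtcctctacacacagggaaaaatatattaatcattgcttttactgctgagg
Col8a1 (chr16:57754738-57754887, minus strand): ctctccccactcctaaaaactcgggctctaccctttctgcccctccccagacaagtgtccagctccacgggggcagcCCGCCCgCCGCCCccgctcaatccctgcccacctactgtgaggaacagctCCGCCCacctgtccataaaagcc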

How the data were processed

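The authors trimmed reads with Trim Galore 0.6.3, aligned them to GRCm38 with STAR 2.5.3a and deposited raw read counts per gene from STAR with Ensembl release 94 models. The strand setting was not given in the sources used here. The 44 collagen rows and the pathway and marker lists were chosen with earlier results of these data known, so no p was adjusted over a list and no set test was run.

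Counts were converted to log2 CPM from library totals (edgeR 4.0.16, prior count 2), genes with a mean log2 CPM under -3 were dropped, and 1 limma-trend model (limma 3.58.1, R 4.3.3) that gave each of the 6 groups its own mean was fitted to 22570 genes in 24 libraries. Tests were two-sided, with Benjamini-Hochberg adjustment over all genes and calls at adjusted p below 0.05. Replicates are single mice, and intervals are 95% intervals from the SE. Levels between genes were divided by the union of exon lengths (GENCODE M21). Alternatives were TMM and DESeq2 size factors, edgeR's quasi-likelihood test, the DESeq2 1.42.0 Wald test, other filters (none, or a mean log2 CPM of at least 0), a prior count of 0.5, only the compared groups, sex or libraries 20 to 27 as covariates, and leaving out each library. The fits were tested on simulated data.

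Values by library were given for the fibrillar and type IV genes and for the 12 genes of other types with the largest change among those called in RC/- against RC/+ or within an edited line. The 4 largest increases and decreases of the pathway list were named. Ratios were compared by exact permutation tests. 1 gene of the marker lists is not reported here and was left out of their counts and sums. Groups follow the sample titles.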

Additional observations from a re-analysis of the deposited data

Results flagged for a closer look

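The change between noncystic and cystic kidneys differed between the D18 line and the unedited line for 20 collagen genes, by the interaction term of the limma-trend model (log2 scale, D18 line minus unedited line). Interaction values were negative for Col12a1 (-3.69), Col8a1 (-2.80), Col17a1 (-2.12), Col11a1 (-2.04), Col1a1 (-2.03), Col28a1 (-1.80), Col7a1 (-1.78), Col8a2 (-1.73), Col14a1 (-1.32), Col5a2 (-1.32), Col5a3 (-1.28), Col1a2 (-1.25), Col6a3 (-1.24), Col3a1 (-1.19), Col5a1 (-1.11), Col6a2 (-0.79), Col26a1 (-0.67) and Col18a1 (-0.63). They were positive for Col4a3 (0.99) and Col27a1 (0.70).

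In the D53 line, 16 genes differed by the same test, with negative values for Col12a1 (-3.15), Col8a1 (-2.88), Col11a1 (-2.35), Col1a1 (-1.93), Col17a1 (-1.89), Col7a1 (-1.73), Col14a1 (-1.59), Col8a2 (-1.36), Col5a2 (-1.30), Col6a3 (-1.22), Col1a2 (-1.19), Col5a3 (-1.15), Col5a1 (-1.04), Col6a2 (-1.03), Col6a1 (-0.74) and Col18a1 (-0.60). Both sets use the RC/- and RC/+ libraries and are not independent of each other. With libraries 20 to 27 as a covariate, 8 members were called for D18 and 3 for D53, counts given without the share over all genes. Under the alternatives, Col3a1 (13 of 28), Col6a2 (13 of 28) and Col4a3 (12 of 28) were often not called for D18, nor was Col6a1 (8 of 27) for D53.

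Of 132 groups of 5 libraries examined for a single distant library by Dixon's criterion, 5 held one, and chance gives about 1 in 20. Col4a3 was lowest in RC/- D53 replicate 27, at 245 CPM. Col5a3 was lowest in RC/- D53 replicate 24, at 4.23 CPM. Col17a1 was highest in RC/- replicate 17, at 5.13 CPM. Col19a1 was highest in RC/- replicate 16, at 0.168 CPM, which rests on 4 counts. Col20a1 was highest in RC/- D53 replicate 26, at 2.66 CPM.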

How the results depend on the processing

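Counts of collagen genes called in RC/- against RC/+ were 25 to 28 under other scalings, tests, filters, prior counts, sample sets and with sex as a covariate, and 15 when a log2 fold change of 1 or more in either direction was also required. That requirement gave 16 calls in RC/- D18 against RC/-, 13 in RC/- D53 against RC/-, and 0 within the D18 line, within the D53 line and between the edited cystic groups. Over all 22570 genes tested it gave 1733 higher and 920 lower in RC/- against RC/+. Against RC/-, it gave 1004 higher and 1511 lower in RC/- D18, and 634 higher and 847 lower in RC/- D53. Libraries 20 to 27 as a covariate gave 3 calls in RC/- D53 against RC/-, 0 within the D18 line, 3 within the D53 line, 2 between the edited cystic groups, and 8 and 3 for the interactions with D18 and D53. In RC/- D53 against RC/- that covariate turned the sign for Col3a1 (0.0787), Col5a1 (0.0041), Col16a1 (0.39), Col6a1 (0.13), Col4a1 (0.14) and Col4a2 (0.21), none of them called. It moved the median of the fibrillar genes to -0.78 in D18 and -0.20 in D53, and of the other types to -0.42 and -0.11. With replicates 18 and 19 only in RC/- D18, chosen after seeing the data, there were 21 calls against RC/-, 0 within the D18 line, 0 between the edited cystic groups and 10 for the D18 interaction, and medians of -0.78 for fibrillar and -0.42 for other types. With only the compared groups in the model, 0, 4 and 2 members were called within D18, within D53 and between the edited cystic groups, and the DESeq2 Wald test called 2, 2 and 3. Over all genes, the former gave 12, 665 and 50 higher and 0, 107 and 12 lower. The DESeq2 Wald test gave 110, 595 and 202 higher and 30, 159 and 71 lower. The causes of these shifts were not tested. Where no count over all genes is given, a shift particular to collagen genes cannot be read from them.

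Leaving out 1 library at a time gave 21 to 27 calls in RC/- against RC/+, 26 to 31 in RC/- D18 and 21 to 28 in RC/- D53 against RC/-, 0 to 1 within the D18 line, 1 to 1 within the D53 line, 0 to 1 between the edited cystic groups (0 in 8 of 10 fits without a library of these groups), 13 to 25 for the D18 interaction (13 without RC/+ D18 replicate 9) and 9 to 17 for the D53 interaction (9 without RC/+ replicate 5). No share over all genes is set beside these counts. No paired analysis was possible because no 2 groups share a replicate number. Genes with few counts, such as Col10a1, Col19a1 and Col22a1, are limited by depth.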
